A study of Mus musculus with 11 samples.

Results

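Red blood cell formation in the fetal liver was followed through 9 genes, which were matched by Ensembl identifier among the 52636 genes listed for each liver and described in all 11 livers. The 9 genes were Gata1, Klf1, Tal1, Nfe2 and Zfpm1, which code for nuclear regulators of the erythroid programme, Epor and Tfrc, which code for the receptors for erythropoietin and transferrin, and Slc4a1 and Epb42, which code for membrane proteins of the red cell. The first 7 are used earlier in red cell formation and the last 2 later, and early genes were compared with late ones over 4 genotypes. Each library held RNA of 1 whole liver from an untreated C57BL/6N embryo at day E15.5. There were 3 livers labelled WT, 2 labelled TNFR1KO (Tnfr1-/-), 3 labelled Casp8 MLKL dKO (Casp8-/- Mlkl-/-) and 3 labelled Casp8 TNFR1 dKO (Casp8-/- Tnfr1-/-). The alleles were germline knockouts in every cell of the embryo, not deletions in one lineage. Tnfr1-/- livers lacked the TNF receptor that Casp8-/- Tnfr1-/- livers lacked too, and Casp8-/- Mlkl-/- livers shared the loss of caspase-8 but also lacked MLKL, the pseudokinase that carries out necroptosis. Casp8-/- Tnfr1-/- livers therefore differed from WT by the loss of caspase-8 and TNFR1, from Tnfr1-/- livers by the loss of caspase-8, and from Casp8-/- Mlkl-/- livers by the loss of TNFR1 and the presence of MLKL.

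The fetal liver is the main site of definitive red cell formation in the mouse at this age. Progenitors that respond to erythropoietin through Epor divide and mature on macrophages, take up transferrin-bound iron through Tfrc for heme, and fill with hemoglobin. GATA1, TAL1 and their partners act together at enhancers and promoters of erythroid genes, FOG1, the product of Zfpm1, binds GATA1, and KLF1 acts at CACCC elements, among them those of globin genes. NF-E2, whose large subunit is the product of Nfe2, acts at the globin locus and in platelet-forming cells. Slc4a1 codes for band 3, the anion exchanger of the red cell membrane, and Epb42 for protein 4.2, which ties band 3 to the membrane skeleton.

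The windows of 250 bases before the annotated start were read for the genes above from RefSeq, build GRCm38.p6, where 7 of the 9 genes matched and Nfe2 and Slc4a1 did not. They were searched on both strands for AGATAA and TGATAA, and for AGATAG and also TGATAG, words that GATA factors can bind. At least 1 of these words was in the windows of Klf1, Epor and Epb42 and in 1 of 2 windows of Tal1, and none was in the windows of Gata1, Zfpm1 and Tfrc. Of the 9 windows of these 7 genes 4 held such a word, beside 26.5% of all 32851 windows of this length. The 4 windows with a word are printed. They belong to Klf1, Tal1 and Epor, among the lowest of the 9 genes relative to WT in Casp8-/- Tnfr1-/- livers, and to Epb42, a late gene nearer to the WT level. Gata1 and Zfpm1, which had no word, were among the lowest too. Capitals mark the word.
Klf1, chr8:84901732-84901981, plus strand: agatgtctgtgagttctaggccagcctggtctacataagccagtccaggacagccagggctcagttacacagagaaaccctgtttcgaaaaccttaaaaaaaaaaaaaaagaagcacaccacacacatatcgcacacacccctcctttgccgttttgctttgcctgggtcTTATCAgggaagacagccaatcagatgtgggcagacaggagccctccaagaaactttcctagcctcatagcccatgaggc
Tal1, chr4:115056176-115056425, plus strand: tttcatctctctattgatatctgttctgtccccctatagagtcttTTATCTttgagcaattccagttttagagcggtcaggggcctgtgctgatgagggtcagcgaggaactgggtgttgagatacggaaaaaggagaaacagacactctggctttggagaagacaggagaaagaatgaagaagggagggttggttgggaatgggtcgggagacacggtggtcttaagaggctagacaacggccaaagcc
Epor, chr9:21963577-21963826, minus strand: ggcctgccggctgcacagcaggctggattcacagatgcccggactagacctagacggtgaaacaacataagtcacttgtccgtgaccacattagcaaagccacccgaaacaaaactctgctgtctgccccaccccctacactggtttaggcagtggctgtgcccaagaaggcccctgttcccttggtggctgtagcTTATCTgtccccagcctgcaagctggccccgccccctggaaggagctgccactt
Epb42, chr2:121036878-121037127, minus strand: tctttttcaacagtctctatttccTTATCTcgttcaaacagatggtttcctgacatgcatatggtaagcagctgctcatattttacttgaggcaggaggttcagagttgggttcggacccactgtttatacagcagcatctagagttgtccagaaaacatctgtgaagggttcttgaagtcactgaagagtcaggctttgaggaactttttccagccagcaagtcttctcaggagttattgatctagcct

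The word lay 80 bases before the RefSeq start in Klf1, 205 in Tal1, 54 in Epor and 226 in Epb42. It was on the strand opposite to the gene in each, so that the capitals read as its reverse complement. The gene positions given below come from GENCODE, whose starts can differ. Windows of Klf1, Tfrc and Epb42 reached into those positions, and the windows of Gata1 and the Tal1 window without a word lay within them. CACCC, the core of the elements bound by KLF1, was found on either strand in the windows of Gata1, Klf1, Zfpm1, Epor and Tfrc, in 1 of the 2 Tal1 windows and not in that of Epb42, and in 52.0% of all windows. A match is a description of letters, and binding was not measured.

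The livers had 23129212 to 35819339 counted reads, of which the 9 genes together took 0.724% to 1.35%. The lowest count of any of the 9 genes in any liver was 1422, for Klf1 in Casp8-/- Tnfr1-/- replicate 3. Levels are given in CPM, the reads of a gene scaled to a common library size after TMM normalization. Casp8 was at 7.82 to 10.2 CPM in Casp8-/- Mlkl-/- and 13.1, 11.5 and 21.9 in Casp8-/- Tnfr1-/- livers, below the 27.7 to 33.9 of the other 5 livers, and Mlkl was at 0.73 to 1.22 CPM in Casp8-/- Mlkl-/- livers and at least 3.68 elsewhere. Tnfrsf1a, the gene of TNFR1, was not lower in Tnfr1-/- livers, at 49.8 to 50.5 CPM against 47.1 to 53.4 in WT, and was above the WT levels in Casp8-/- Tnfr1-/- livers, at 76.9, 76.0 and 425, so its count did not check the loss of TNFR1 in either genotype. Replicate 3 of Casp8-/- Tnfr1-/- had both the Casp8 level nearest to WT and the highest Tnfrsf1a level. A pair of livers stood apart. Casp8-/- Tnfr1-/- replicate 3 correlated with the others at 0.84 to 0.89 in log2 CPM, against 0.95 to 0.99 among the rest. It held hemoglobin genes at 13.0% of counts against 3.71% to 6.18%, striated muscle genes at 1762 CPM in sum against 15.1 to 37.5, and Xist at 3409 CPM against at most 0.57. Casp8-/- Mlkl-/- replicate 1 held hepatocyte genes at 18.9% of counts against 5.82% to 8.31% in the others, and macrophage genes at 1329.5 CPM in sum against 389.7 to 619. Calls of the 9 genes and counts of the lists are given with and without both livers, and the permutation tests only with all 11.

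In WT livers the 9 genes differed widely in level per kilobase of exon but little between livers. Slc4a1 was the highest at 1578 ± 51.8 CPM per kilobase (SD, n = 3), followed by Tfrc at 507 ± 28.1, Klf1 at 209 ± 8.88 and Nfe2 at 172 ± 7.31. Tal1 at 155 ± 0.85, Gata1 at 153 ± 3.02, Epb42 at 148 ± 3.47 and Epor at 144 ± 6.32 followed so closely that neighbours in this order differed by less than the sum of their SDs, and Zfpm1 was the lowest at 100.3 ± 3.36. The coefficient of variation across WT livers was between 0.55% for Tal1 and 5.55% for Tfrc, whereas in Casp8-/- Tnfr1-/- livers it was between 14.2% for Epb42 and 42.9% for Tal1.

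**Figure D1:**
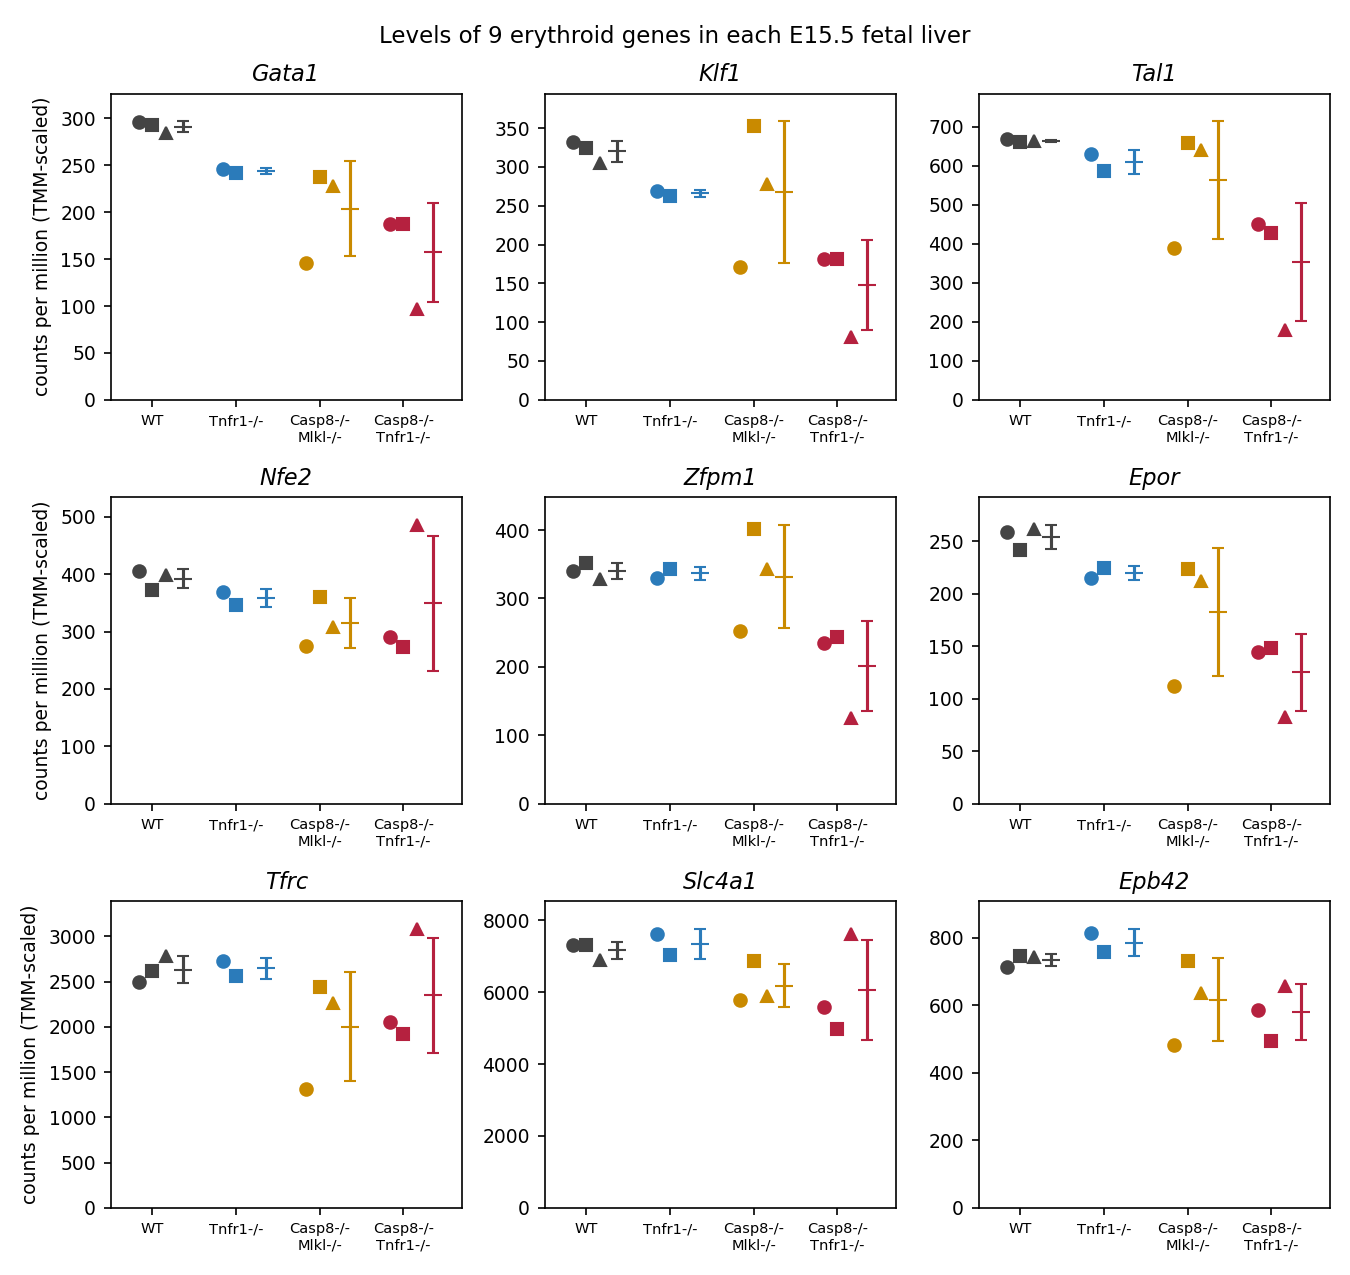
Level of each gene in each liver in TMM-scaled CPM (vertical axis, from 0), by genotype; circles, squares and triangles are replicates 1, 2 and 3, and the bar beside them is the mean ± SD. Gata1, Klf1, Tal1, Zfpm1 and Epor were lowest in Casp8-/- Tnfr1-/- replicate 3, where Nfe2, Tfrc and Slc4a1 were higher than in any WT liver.

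The 5 genes Gata1, Klf1, Tal1, Zfpm1 and Epor were lower in each Casp8-/- Tnfr1-/- liver than in any WT or Tnfr1-/- liver, at means of 0.46 to 0.59 of the WT level, but none passed the test across all genes. The gap for Nfe2, Tfrc, Slc4a1 and Epb42 was smaller, at 0.79 to 0.89 of WT. This split narrowed without Casp8-/- Tnfr1-/- replicate 3, a liver that stood apart. Log2 fold changes from WT were then -0.40 to -0.47 for these genes and -0.50 to -0.81 for the 5 genes. With edgeR (quasi-likelihood test, Benjamini-Hochberg adjusted over 17243 genes), 0 of the 9 genes were called at an adjusted p under 0.05 between Casp8-/- Tnfr1-/- and WT, where 5.8% of all genes were called and 0.702% were called lower. At an unadjusted p under 0.05 the 5 genes were lower, beside 7.21% of all genes lower at that p, and all 9 fold changes were below 0, beside 50.1% of all genes. The median log2 fold change of the 9 genes was -0.76, while that of all genes tested was -0.00153. As RNA was taken from whole livers, fewer cells of a type and less RNA per cell cannot be told apart here. The edgeR p-values set a difference between groups against the spread between livers, estimated over all 11 in 1 fit.

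Gata1, the X-linked regulator without which red cells do not mature, lies at chrX:7959260-7978071 on the minus strand (GRCm38, ENSMUSG00000031162). It was at 296, 293 and 285 CPM in the 3 WT livers and at 247 and 242 in Tnfr1-/- livers. Its level was 146, 237 and 228 in Casp8-/- Mlkl-/- livers and 187, 188 and 96.5 in Casp8-/- Tnfr1-/- livers. All 3 of the last were below the WT and Tnfr1-/- range, whereas Casp8-/- Mlkl-/- replicate 1 lay among them. The log2 fold change from WT was -0.89 ± 0.26 (SE, adjusted p = 0.0796 by edgeR), and an exact two-sided permutation test against the 8 other livers, 1 of 9 such tests and with p not adjusted, gave p = 0.0303, where the smallest p possible is 0.00606.

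Klf1, the CACCC-binding activator of globin and membrane genes (chr8:84901928-84905291, plus strand, ENSMUSG00000054191), had the lowest fold change. WT livers were at 332, 324 and 305 CPM, Tnfr1-/- livers at 269 and 263, Casp8-/- Mlkl-/- livers at 171, 353 and 279, and Casp8-/- Tnfr1-/- livers at 181, 182 and 81.0. Replicates 1 and 2 of the last genotype were nearly equal, at 56.6% and 56.7% of the WT mean, and replicate 3 was at 25.3%. The log2 fold change from WT was -1.11 ± 0.32 (SE, adjusted p = 0.0754 by edgeR), and the exact permutation p against the 8 other livers was 0.0182.

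Tal1, which codes for the bHLH partner of GATA1 in erythroid cells (chr4:115056426-115071755, plus strand, ENSMUSG00000028717), was the steadiest gene in WT, at 668, 661 and 663 CPM. It was at 631 and 588 CPM in Tnfr1-/- livers, at 389.8, 659.8 and 641 in Casp8-/- Mlkl-/- livers, and at 452, 429 and 179 in Casp8-/- Tnfr1-/- livers. Casp8-/- Mlkl-/- replicates 2 and 3 were thus at 99.4% and 96.5% of the WT mean, and the first replicate was below all but 1 of the Casp8-/- Tnfr1-/- livers. The log2 fold change from WT was -0.91 ± 0.33 (SE, adjusted p = 0.128 by edgeR), and the exact permutation p against the 8 other livers was 0.0182.

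Zfpm1, which codes for the GATA1 cofactor FOG1 (chr8:122282141-122337251, plus strand, ENSMUSG00000049577), was the single gene of the 9 that kept all 3 Casp8-/- Tnfr1-/- livers below each of the 8 others. It was at 340.3, 351 and 329 CPM in WT, 330.1 and 343 in Tnfr1-/-, 252, 401 and 343 in Casp8-/- Mlkl-/-, and 235, 243 and 125 in Casp8-/- Tnfr1-/- livers. The gap between the nearest livers of the groups, 243 and 252 CPM, was small. The exact permutation test gave p = 0.00606, the smallest that 3 livers against 8 allow. The log2 fold change from WT was -0.76 ± 0.25 (SE, adjusted p = 0.109 by edgeR).

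Epor, the receptor through which erythropoietin keeps erythroid progenitors alive (chr9:21958897-21963506, minus strand, ENSMUSG00000006235), was at 259, 241 and 262 CPM in WT and at 215 and 225 in Tnfr1-/- livers. Casp8-/- Mlkl-/- livers were at 112, 224 and 212 CPM and Casp8-/- Tnfr1-/- livers at 145, 148 and 82.6. The log2 fold change from WT was -1.02 ± 0.28 (SE), with the lowest adjusted p of the 9 genes, 0.0641 by edgeR. The exact permutation p against the 8 other livers was 0.0182, and as for Gata1 a Casp8-/- Mlkl-/- liver, replicate 1, lay below 2 Casp8-/- Tnfr1-/- livers.

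Nfe2 and Tfrc, although placed with the early genes, followed another pattern. Nfe2 lies at chr15:103248212-103258403 on the minus strand (ENSMUSG00000058794) and Tfrc at chr16:32608920-32632794 on the plus strand (ENSMUSG00000022797). Nfe2 was at 405, 373 and 398 CPM in WT, 369 and 347 in Tnfr1-/-, 275, 360.3 and 309 in Casp8-/- Mlkl-/-, and 289.9, 273 and 485 in Casp8-/- Tnfr1-/- livers. Tfrc, the main route of iron into the erythroblast, was at 2495, 2618 and 2786 CPM in WT, 2731 and 2563 in Tnfr1-/-, 1314, 2437 and 2259 in Casp8-/- Mlkl-/-, and 2049, 1917 and 3077 in Casp8-/- Tnfr1-/- livers. For both genes, replicates 1 and 2 of Casp8-/- Tnfr1-/- were below every WT liver and replicate 3 was above every other liver. The log2 fold changes from WT were -0.17 ± 0.22 for Nfe2 (SE, adjusted p = 0.639) and -0.17 ± 0.27 for Tfrc (adjusted p = 0.709), both by edgeR.

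With all 11 livers the late membrane genes resembled Nfe2 and Tfrc more than Gata1, Klf1, Tal1, Zfpm1 and Epor. Without Casp8-/- Tnfr1-/- replicate 3 this was no longer clear. Slc4a1 then correlated in log2 CPM at 0.91 with Nfe2, 0.72 with Tfrc and 0.78 to 0.80 with the other early genes. For Epb42 these values were 0.90, 0.91 and 0.82 to 0.90. Slc4a1 lies at chr11:102348824-102366203 (ENSMUSG00000006574) and Epb42 at chr2:121017891-121037072 (ENSMUSG00000023216), both on the minus strand. Slc4a1 was at 7309, 7309 and 6901 CPM in WT, 7629.8 and 7039 in Tnfr1-/-, 5781, 6872 and 5889 in Casp8-/- Mlkl-/-, and 5589, 4987 and 7635 in Casp8-/- Tnfr1-/- livers. Epb42 was at 714, 745 and 742 CPM in WT, 813 and 756 in Tnfr1-/-, 483, 729 and 637 in Casp8-/- Mlkl-/-, and 587, 494 and 658 in Casp8-/- Tnfr1-/- livers. Casp8-/- Tnfr1-/- and WT livers did not overlap for Epb42 and did for Slc4a1, whose replicate 3 was above every WT liver and level with the higher Tnfr1-/- liver. The log2 fold changes from WT were -0.24 ± 0.23 for Slc4a1 (SE, adjusted p = 0.512) and -0.34 ± 0.18 for Epb42 (adjusted p = 0.272), both by edgeR. In total 6 of the 9 genes were lower without overlap between Casp8-/- Tnfr1-/- and WT livers, beside 18.9% of all genes tested that were lower in this way. They were Gata1, Klf1, Tal1, Zfpm1, Epor and Epb42.

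**Figure D2:**
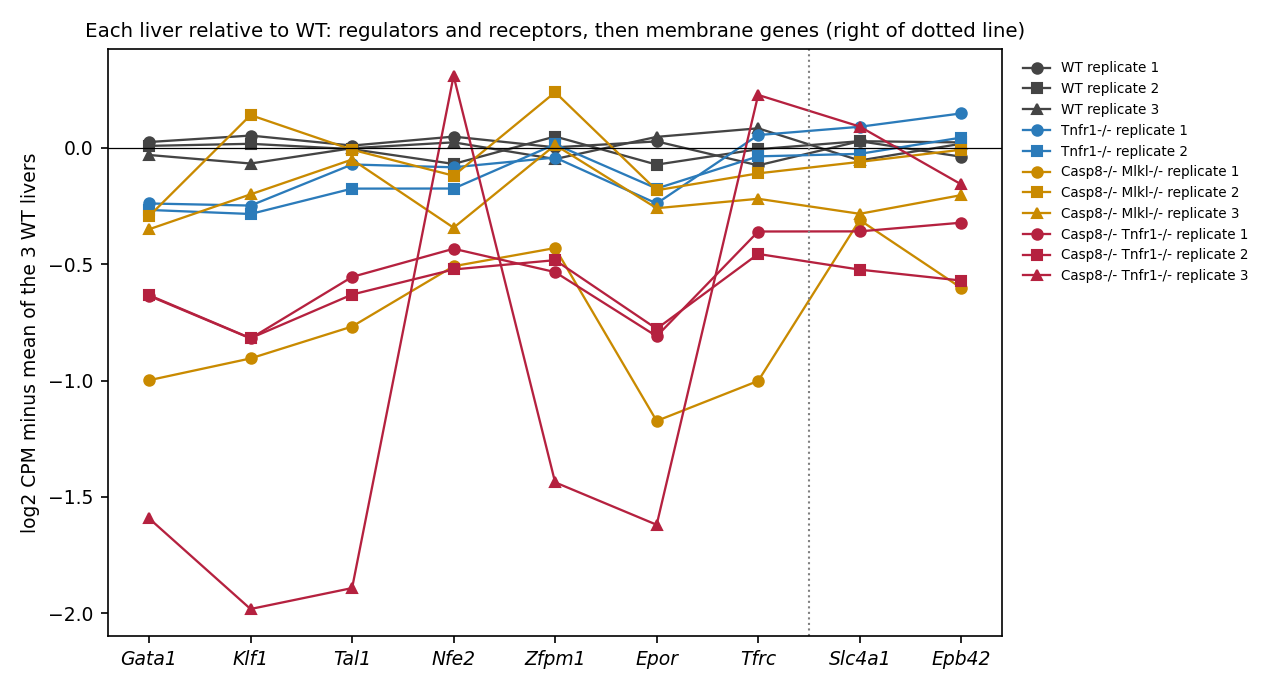
Each liver's log2 CPM minus the mean of the 3 WT livers (vertical axis) for the 9 genes, with early genes left and membrane genes right of the dotted line; a line joins the values of 1 liver and implies no order of the genes. Casp8-/- Tnfr1-/- replicates 1 and 2 ran between -0.32 and -0.82 for all 9 genes, while replicate 3 ran from -1.98 for Klf1 to 0.31 for Nfe2.

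The 3 Casp8-/- Tnfr1-/- livers thus differed in which genes were low. In replicates 1 and 2 all 9 genes were below the WT range, at 56.6% to 80.0% of the WT mean. In replicate 3, Gata1, Klf1, Tal1, Zfpm1 and Epor were at 25.3% to 36.9% of the WT mean, Epb42 was at 89.6%, and Slc4a1, Tfrc and Nfe2 were at 106% to 124%. Replicate 3 was the liver with the high hemoglobin share, the striated muscle genes and the Xist reads given above, and their part in its values was not tested.

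Without replicate 3 the 9 log2 fold changes from WT lay between -0.81 and -0.40, and 1 gene was called, Nfe2 at -0.47 ± 0.12 (SE, adjusted p = 0.0395 by edgeR), beside 2.55% of all genes called lower. Without Casp8-/- Mlkl-/- replicate 1, which is in neither group of this comparison but shares the fit's estimate of the spread, 3 genes were called lower, Gata1, Klf1 and Epor, with adjusted p of 0.0472, 0.0427 and 0.0191 by edgeR, beside 2.15% of all genes. Without both livers, a choice made after their values were seen, all 9 genes were called lower by edgeR, beside 13.5% of all genes, with log2 fold changes from -0.80 ± 0.09 for Klf1 (adjusted p = 8.96e-06) to -0.39 ± 0.08 for Tfrc (adjusted p = 0.00171). The fold changes without replicate 3 were nearly the same whether or not Casp8-/- Mlkl-/- replicate 1 was in the fit, while the standard errors were smaller without it. Slc4a1 was then at -0.42 ± 0.09 and Epb42 at -0.43 ± 0.09, so the late genes were called lower too. With all 11 livers, the Wald test of DESeq2 called Gata1, Klf1, Tal1, Zfpm1 and Epor lower, with adjusted p from 0.00800 to 0.0483, beside 3.42% of all genes. Limma-voom with quality weights, which gives less weight to livers far from their group, called all 9 lower, beside 13.6% of all genes.

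**Figure D3:**
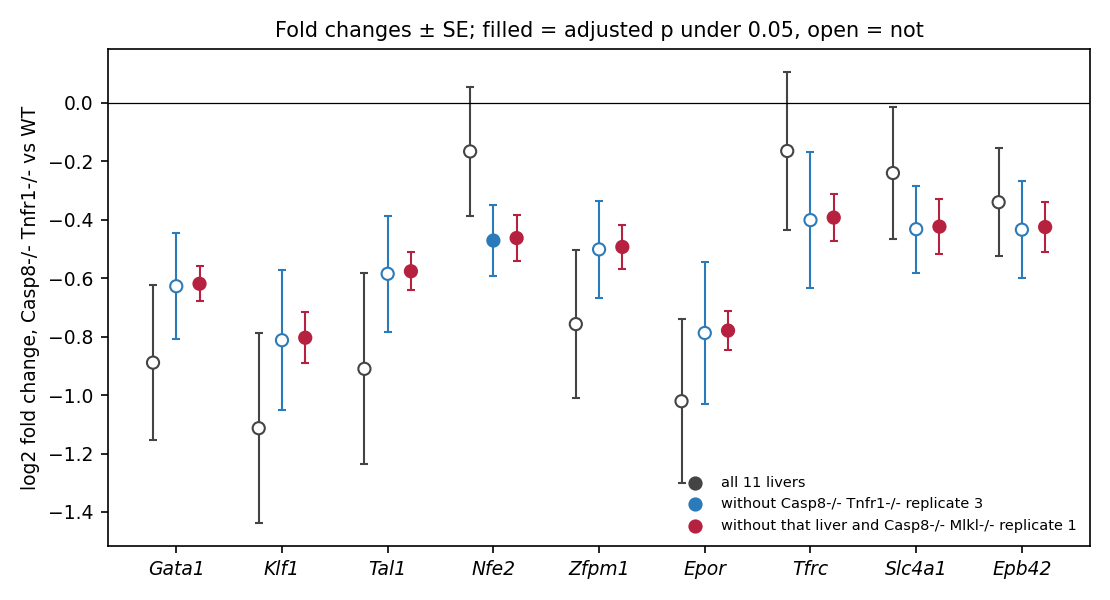
Log2 fold change from WT to Casp8-/- Tnfr1-/- livers (vertical axis, ± SE) of the 9 genes with all 11 livers, without Casp8-/- Tnfr1-/- replicate 3, and without that liver and Casp8-/- Mlkl-/- replicate 1; filled points had an adjusted p under 0.05 by edgeR. The number of filled points was 0, 1 and 9.

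Late and early genes were set against each other in each liver as the mean log2 CPM of Slc4a1 and Epb42 minus the mean of the 7 earlier genes. WT livers were at 2.25, 2.31 and 2.25, Tnfr1-/- livers at 2.51 and 2.44, Casp8-/- Mlkl-/- livers at 2.64, 2.28 and 2.23, and Casp8-/- Tnfr1-/- livers at 2.52, 2.34 and 3.38. The mean was 2.75 ± 0.55 (SD, n = 3) in Casp8-/- Tnfr1-/- against 2.27 ± 0.03 in WT, a difference of 0.48 on the log2 scale, less than the SD of the Casp8-/- Tnfr1-/- livers. Replicate 3 stood above all other livers, and without it the difference was 0.16, with replicates 1 and 2 inside the range of the Tnfr1-/- and Casp8-/- Mlkl-/- livers. Casp8-/- Mlkl-/- replicate 1 was the next highest. The ratio of Slc4a1 to Gata1 CPM was 24.2 to 25.0 in WT, 26.6 and 29.8 in Casp8-/- Tnfr1-/- replicates 1 and 2, 79.1 in replicate 3 and 39.7 in Casp8-/- Mlkl-/- replicate 1.

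**Figure D4:**
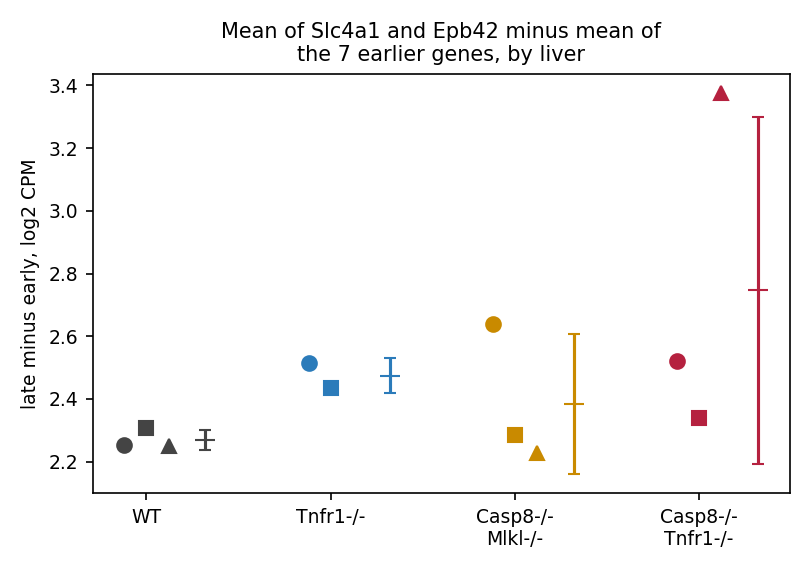
Mean log2 CPM of Slc4a1 and Epb42 minus the mean of the 7 earlier genes (vertical axis) in each liver, by genotype; symbols are replicates 1 to 3 and the bar is the mean ± SD. Casp8-/- Tnfr1-/- replicate 3 lay at 3.38, and the other 10 livers between 2.23 and 2.64.

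The comparisons of Casp8-/- Tnfr1-/- livers with the other genotypes share these livers with the comparison above, so each is given by its own values. Against Tnfr1-/- livers, 0 of 9 genes were called by edgeR, where 2.17% of all genes were, and 3 were lower at an unadjusted p under 0.05, Klf1, Zfpm1 and Epor, beside 3.78% of all genes. All 9 log2 fold changes were below 0, beside 51.1% of all genes, from -0.85 ± 0.35 for Klf1 to -0.04 ± 0.25 for Nfe2 (SE), with a median of -0.64. Gata1, Klf1, Tal1, Zfpm1, Epor and Epb42, 6 of 9, did not overlap, beside 20.6% of all genes lower in this way, a mark that is easier to meet with the 2 livers of this group. Without both livers that stood apart all 9 were called lower by edgeR, beside 9.3% of all genes, and with quality weights all 9 were, beside 10.5%.

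Against Casp8-/- Mlkl-/- livers, which share the loss of caspase-8, 0 of 9 genes were called by edgeR, where 1.65% of all genes were. Klf1, at -0.85 ± 0.32 (SE), and Zfpm1, at -0.72 ± 0.25, were lower at an unadjusted p under 0.05, beside 4.23% of all genes. Nfe2 and Tfrc were at 0.15 and 0.23 and Slc4a1 and Epb42 at -0.03 and -0.09, and 7 of the 9 fold changes were below 0, beside 53.1% of all genes. Zfpm1 alone of the 9 did not overlap, beside 6.15% of all genes lower in this way. Without both livers that stood apart, 6 of 9 genes were called lower, beside 6.1% of all genes. They were Gata1, Klf1, Tal1, Zfpm1, Epor and Epb42, from -0.79 for Klf1 to -0.30 for Gata1 with Epb42 at -0.33. Nfe2 and Tfrc turned to -0.24 and -0.23 (adjusted p = 0.0662 and 0.0842 by edgeR). With quality weights 5 of 9 were called lower, beside 4.73% of all genes.

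The other genotypes were compared with WT in the same way. Between Casp8-/- Mlkl-/- and WT livers 0 of 9 genes were called by edgeR, where 0.0058% of all genes were called, and 0 had an unadjusted p under 0.05, as 5.63% of all genes had. All 9 fold changes were below 0, beside 46.6% of all genes, with a median of -0.26, and 6 genes did not overlap, beside 11.1% of all genes lower in this way. Replicate 1 was the lowest of the 3 for each of the 9 genes, at 44.3% to 80.6% of the WT mean for the 9 genes, where replicates 2 and 3 were at 78.4% to 118%. Gata1 was low in all 3, at 50.0%, 81.5% and 78.4% of WT, and without both livers that stood apart it was the single gene called, at -0.32 ± 0.06 (SE, adjusted p = 0.00811 by edgeR), beside 3.18% of all genes. With quality weights Gata1 and Nfe2 were called lower, beside 2.85%.

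Between Tnfr1-/- and WT livers 0 of 9 genes were called by edgeR, where 0.0% of all genes were called, and 0 had an unadjusted p under 0.05, as 1.08% of all genes had. Gata1 was then at -0.25 ± 0.29 (SE) and Klf1 at -0.27 ± 0.36, both without overlap between the groups, and Slc4a1 and Epb42 were at 0.03 and 0.10. Gata1, Klf1, Tal1, Nfe2 and Epor, 5 of 9, were lower without overlap, beside 18.4% of all genes, and Epb42 was higher without overlap, beside 17.3%. In all, 6 of the 9 fold changes were below 0, beside 49.3% of all genes.

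With all 11 livers the correlations of the 9 genes fell into a pair of sets, whose ranges overlapped without Casp8-/- Tnfr1-/- replicate 3. Within Gata1, Klf1, Tal1, Zfpm1 and Epor the Pearson correlation of log2 CPM lay between 0.91 and 0.98, and within Nfe2, Tfrc, Slc4a1 and Epb42 between 0.70 and 0.89. Between the sets it lay between -0.19 and 0.64. Without Casp8-/- Tnfr1-/- replicate 3 it lay between 0.71 and 0.93 between the sets. Within the first set it then lay between 0.76 and 0.98, and within the other between 0.72 and 0.91. The correlation of Gata1 with Nfe2, for example, went from -0.01 to 0.92 and that with Slc4a1 from 0.20 to 0.78. These are descriptions over livers that share genotypes and scaling. Outside the 9 genes, those most like Gata1 over the 11 livers were Samd1 (r = 0.995), Oard1 (0.994), Psmd5 (0.993), Nelfcd (0.990) and Tac2 (0.988), and those most like Slc4a1 were Trak2 (0.98), D5Ertd579e, Dcaf10, Slc25a37 and Sh3yl1 (0.94 to 0.95). Slc25a37 codes for mitoferrin, which carries iron into mitochondria for heme, and Tac2 codes for a tachykinin.

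**Figure D5:**
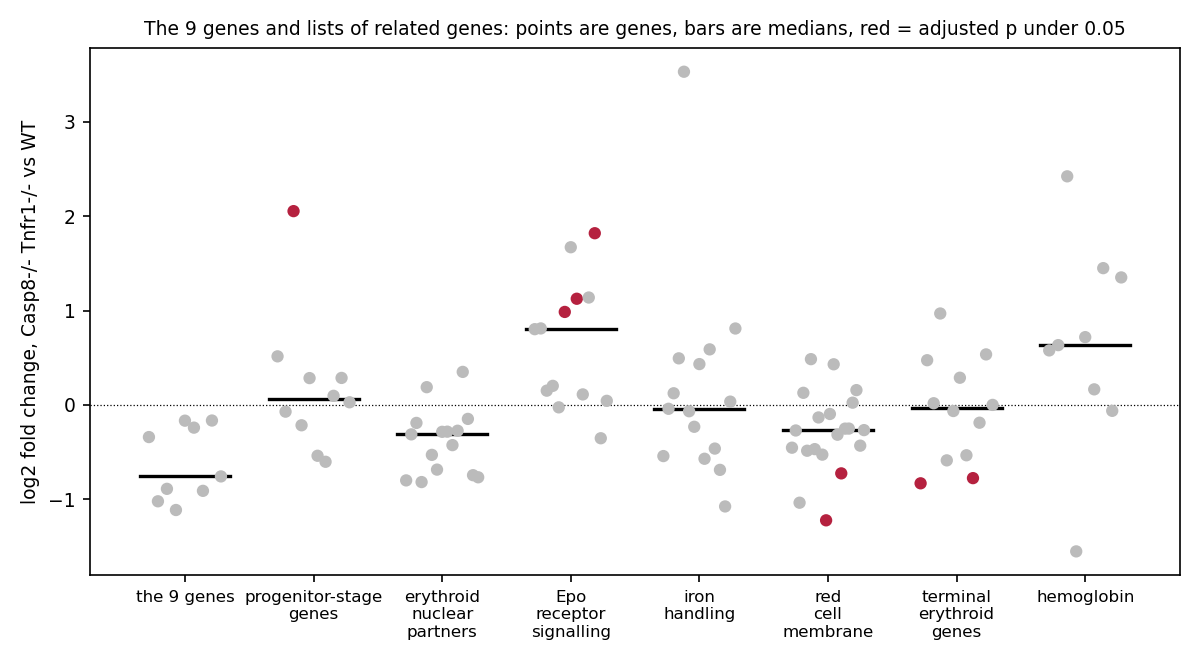
Log2 fold change from WT to Casp8-/- Tnfr1-/- livers (vertical axis) of each tested gene of the 9 and of 7 lists of related genes, with all 11 livers; the bar is the median of a list, and red points had an adjusted p under 0.05 by edgeR. With all livers the 9 genes had the lowest median, -0.76, and Epo receptor signalling the highest, 0.80. In Casp8-/- Tnfr1-/- replicates 1 and 2 the median log2 difference from WT was -0.89 and -0.66 for hemoglobin genes. For the 9 genes it was -0.53 and -0.57 there. Epo receptor signalling was at 0.12, 0.30 and 0.68 in Casp8-/- Tnfr1-/- replicates 1, 2 and 3.

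Genes around the 9 were read from lists, and their counts stand beside the 5.1% of all genes called higher and 0.702% called lower between Casp8-/- Tnfr1-/- and WT by edgeR. Without both livers that stood apart, 3017 of 16958 genes tested were called higher and 2297, or 13.5%, lower. Of 10 progenitor-stage genes 1 was called, higher, and the median log2 fold change was 0.06. The gene was Csf2rb, the shared beta chain of the receptors for GM-CSF and IL-3, at 28.0, 25.4 and 20.8 CPM in WT and 77.3, 86.7 and 144 in Casp8-/- Tnfr1-/- livers, with a log2 fold change of 2.05 ± 0.25 (SE, adjusted p = 0.00155 by edgeR). It was at 38.1 CPM in Casp8-/- Mlkl-/- replicate 1 and at most 28.9 in the other livers outside Casp8-/- Tnfr1-/-. The sum of the neutrophil genes moved with it, at 5104, 6261 and 14787 CPM in Casp8-/- Tnfr1-/- livers. That sum was 3351 in Casp8-/- Mlkl-/- replicate 1 and at most 1530.3 elsewhere. Mpo and Elane went the other way in Casp8-/- Tnfr1-/- replicate 3, at 53.4 and 14.4 CPM. WT livers held them at 336 to 484 and at 48.7 to 86.0 CPM. The part of the neutrophil genes in the Csf2rb level was not tested. Kit, the receptor for stem cell factor, was at 0.28 ± 0.19 and Gata2, which precedes Gata1 in the lineage, at -0.22 ± 0.26, neither called. Lyl1, a bHLH relative of Tal1, was at -0.54 and Cd34, a surface marker of progenitors, at 0.51. Without both livers that stood apart 4 of the 10 were called higher and 1 lower, with a median of 0.13, Csf2rb at 1.74, Cd34 at 0.28, Lyl1 at -0.45, and Kit at 0.10, which was not called.

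Of 15 nuclear partners of the erythroid factors 0 were called, with a median of -0.31 and 13 of 15 below 0. Hemgn, a nuclear protein of blood progenitors, was at -0.69 ± 0.20 (SE, adjusted p = 0.0810 by edgeR), Gfi1b, a repressor required for erythroid cells, at -0.53 and Lmo2, which bridges TAL1 and GATA1, at -0.43. Without both livers that stood apart 14 of the 15 were called lower, beside 13.5% of all genes, with a median of -0.37.

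Of 13 genes of Epo receptor signalling 3 were called higher and 0 lower, with a median of 0.80. The counts were 4 higher and 2 lower, with a median of 0.16, without both livers that stood apart. Of all 16958 genes tested in that setting, 3017 were called higher. Lyn, a Src family kinase, was at 0.99 ± 0.16, Ptpn6, the phosphatase SHP-1 that acts on the receptor, at 1.12 ± 0.21 and Socs3, a feedback inhibitor of JAK-STAT signalling, at 1.82 ± 0.39 (SE), with adjusted p of 0.00839, 0.0126 and 0.0266 by edgeR. With single livers left out the adjusted p reached 0.0527 for Lyn, 0.0797 for Ptpn6 and 0.125 for Socs3, each without WT replicate 3, and the call was lost without 1, 2 and 4 of the 11 livers. Lyn and Ptpn6 are used in myeloid cells as well. Of 8 neutrophil genes 4 were called higher by edgeR, with a summed level of 5104 to 14787 CPM in Casp8-/- Tnfr1-/- livers against 1061.5 to 1530.3 in WT, and their part in these 3 genes was not tested. Of these 8, Mpo and Elane were below every WT liver in Casp8-/- Tnfr1-/- replicate 3. Epo itself was at 0.24 to 0.68 CPM in every liver, and its fold change was 0.15 ± 0.43.

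Of 15 genes of iron handling 0 were called, with a median of -0.04. Hamp, which codes for the hormone hepcidin made by hepatocytes, was at 3.53 ± 0.91 (SE, adjusted p = 0.0522 by edgeR), from 3.87 to 12.1 CPM in WT to 67.1 to 184 in Casp8-/- Tnfr1-/- livers, but Casp8-/- Mlkl-/- replicate 1 was at 48.7 too. Abcb10, a mitochondrial transporter of erythroid cells, was at -0.54 and Slc11a2, the endosomal iron transporter that follows Tfrc, at -0.57. Trf, which codes for transferrin, was at 0.81 ± 0.70, from 1242 to 1889 CPM in WT to 1655, 1962 and 4549 in Casp8-/- Tnfr1-/- livers, and without replicate 3 it was at 0.23. Casp8-/- Mlkl-/- replicate 1, the liver with the high hepatocyte share, was at 7873 CPM. Of the 15, without both livers that stood apart, 8 were called lower, beside 13.5% of all genes, and 1 higher, Hamp at 2.90, with a median of -0.28.

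Of 20 other genes of the red cell membrane 2 were called lower and 0 higher, with a median of -0.27. They were Rhd, of the Rh complex, at -0.73 ± 0.14 (SE, adjusted p = 0.0169) and Icam4, an adhesion molecule of erythroblasts, at -1.22 ± 0.28 (adjusted p = 0.0343), both by edgeR. Rhd was at 628, 609.6 and 580.2 CPM in WT and at 358, 369.6 and 371 in Casp8-/- Tnfr1-/- livers, so its 3 replicates lay close together. Icam4 was at 124, 111 and 110.1 CPM in WT and at 60.2, 59.5 and 27.8 in Casp8-/- Tnfr1-/- livers. Neither call held with every liver left out in turn, since that of Rhd was lost without any 1 of the 3 WT livers (adjusted p up to 0.0877 by edgeR) and that of Icam4 without 7 of the 11 livers (up to 0.129, without WT replicate 1). Gypc, a glycophorin, had the next smallest p, at -0.53. Of the 20, without both livers that stood apart, 17 were called lower, beside 13.5% of all genes.

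Of 12 terminal erythroid genes 2 were called lower and 0 higher, Trim10 at -0.78 ± 0.19 (SE, adjusted p = 0.0431) and Alad, an enzyme of heme synthesis, at -0.83 ± 0.20 (adjusted p = 0.0435), both by edgeR, with a list median of -0.03. The call of Trim10 was lost without 8 of the 11 livers, one at a time (adjusted p up to 0.155 by edgeR, without WT replicate 2), and that of Alad without 7 (up to 0.162, without WT replicate 1). Prdx2, an abundant red cell peroxidase, was next at -0.53. Alas2, the first enzyme of erythroid heme synthesis and X-linked like Gata1, was at 2198, 2075 and 2128 CPM in WT and at 1619.5, 1539 and 5730.0 in Casp8-/- Tnfr1-/- livers, so that replicate 3 was high and the other replicates low, as for Nfe2 and Tfrc. The Xist reads in replicate 3 stand beside the X-linked genes Gata1, at 33.2% of the WT mean there, and Alas2, at its highest there, and their part was not tested. Without both livers that stood apart 11 of the 12 were called lower, beside 13.5% of all genes, with a median of -0.45.

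Hemoglobin genes were split by liver too. In Casp8-/- Tnfr1-/- replicates 1 and 2 the median log2 difference of 9 hemoglobin genes from WT was -0.89 and -0.66, and in replicate 3 it was 1.83. With all livers 0 of the 9 were called, and without both livers that stood apart all 9 were called lower by edgeR with a median of -0.81, beside 13.5% of all genes. Of 10 proliferation genes 0 were called, with a median of -0.59, and in the 3 Casp8-/- Tnfr1-/- livers their median differences from WT were -0.33, -0.27 and -1.38. The list was split in replicate 3. Mki67 and Bub1 were at 4520.5 and 139 CPM there, above the 3330 to 3428 and 128 to 137 of WT livers. The other proliferation genes were below every WT liver there. Without both livers 7 of the 10 were called lower, with a median of -0.28. Megakaryocyte genes, which share Gata1, Zfpm1 and Nfe2 with the erythroid lineage, had a median fold change of -0.02 with 0 of 10 called, which joined median differences from WT of 0.02, 0.40 and -1.12 in Casp8-/- Tnfr1-/- replicates 1, 2 and 3, beside -0.43 to 0.32 in WT livers. Without both livers their median was 0.22, with 1 called higher, beside 3017 of all 16958 genes called higher. Macrophage genes, the cells on which erythroblasts mature, had 1 of 10 called higher, Cd68 at 0.90, and 1 lower, Marco at -1.51, and their sum was 389.7 to 459 CPM in Casp8-/- Tnfr1-/- against 413 to 529.7 in WT livers. Without both livers 2 of the 10 were called higher and 4 lower, beside the same 3017 of 16958 genes higher and 13.5% lower. The part of these lists in the levels of the 9 genes was not tested.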

How the data were processed

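RNA from 11 single fetal livers was sequenced. Per the labels and methods of the study, the authors aligned single-end 50-base reads to GRCm38 with GSNAP and kept uniquely mapped reads. The labels name the TruSeq RNA v2 kit and a HiSeq sequencer, the methods a stranded TruSeq kit and a NovaSeq. The counting tool, annotation release and use of strand are not given in the sources used here. The authors deposited 1 table per liver with raw counts per Ensembl gene, a width in bases, used here for levels per kilobase, and RPKM values, which the authors scaled by that width and a read total and which were not used in any test. Names and positions came from GENCODE M21 for GRCm38, in which 52403 of 52636 genes were found. The exons of none of the 9 genes overlap those of another gene.

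Genes with enough reads by filterByExpr (minimum count 10) numbered 17243, all 9 genes among them. Library totals were 23129212 to 35819339 reads. TMM factors of the counts were 1.01 to 1.09 in all livers but Casp8-/- Tnfr1-/- replicate 3 (0.758) and Casp8-/- Mlkl-/- replicate 1 (0.812). The counts were fitted for all 4 genotypes together by the quasi-likelihood test of edgeR 4.0.16 in R 4.3.3, with Benjamini-Hochberg adjustment over all genes tested and a threshold of 0.05. For log2 CPM, 2 was added as prior count. Single genes were compared by exact two-sided permutation of 3 livers against 8 over all splits; 3 against 3 could not pass the threshold. No 2 livers were the same library (chi-square per degree of freedom at least 6.45). The fit was also run on simulated counts. No liver stood apart in them, so that run does not bear on calls that changed with the livers left out.

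The 9 genes and the lists were chosen with earlier results of these data known. Named besides the 9 were the 3 genes of each of 6 erythroid lists with the smallest p against WT, 5 fixed genes (Kit, Gata2, Epo, Trf, Alas2; 2 more that the rule fixed are not reported here) and the 5 genes most correlated with Gata1 and with Slc4a1; Xist, Casp8, Mlkl, Tnfrsf1a, Cd68 and Marco were added after their values were seen. Alternatives were edgeR with DESeq2's size factors or with library sizes that leave out hemoglobin genes, DESeq2 1.42.0, limma-voom 3.58.1 without and with quality weights, robust edgeR, other count filters, only the 2 genotypes compared, a replicate block, each liver left out and, chosen after seeing the data, both livers that stood apart left out.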

Additional observations from a re-analysis of the deposited data

How the results depend on the processing

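With all livers 0 of the 9 genes were called in each of the 5 comparisons. Between Casp8-/- Tnfr1-/- and WT, DESeq2's Wald test called 5 genes lower (Gata1, Klf1, Tal1, Zfpm1 and Epor) and limma-voom with quality weights 9. Leaving out single livers gave 0 to 3, 3 without Casp8-/- Mlkl-/- replicate 1 and 1 without Casp8-/- Tnfr1-/- replicate 3, and leaving out both gave 9. Against Tnfr1-/- both quality weights and leaving out both gave 9. Against Casp8-/- Mlkl-/- quality weights gave 5 and leaving out both 6. Between Casp8-/- Mlkl-/- and WT they gave 2 (Gata1 and Nfe2) and 1. In these 3 comparisons single livers left out gave 0, and between Tnfr1-/- and WT every alternative did. The remaining alternatives gave 0 in all 5 comparisons, the replicate block among them. Same-numbered livers correlated at -0.30 to 0.27 in their deviations from the genotype mean, and differently numbered ones at -0.28 to 0.31. With 2 or 3 livers per genotype these values cannot decide whether livers were paired. Of 1496 fold changes of single genes under alternatives, 1326 kept their direction and side of the threshold, 99 became called, 44 lost their call and 27 turned. The cause of these turns was not tested. The late-minus-early difference between Casp8-/- Tnfr1-/- and WT, 0.48, was 0.16 to 0.68 with single livers left out, 0.16 being the value without Casp8-/- Tnfr1-/- replicate 3.

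Log2 fold changes that turned were small in the fit with all livers, apart from Alas2. Between Casp8-/- Tnfr1-/- and Tnfr1-/-, Nfe2 was at -0.35 to 0.12 with single livers left out. Between Casp8-/- Tnfr1-/- and Casp8-/- Mlkl-/-, quality weights gave -0.18 for Nfe2 and -0.18 for Tfrc and leaving out both livers -0.24 and -0.23, while single livers left out gave -0.16 to 0.32 for Nfe2, -0.01 to 0.41 for Tfrc, -0.22 to 0.11 for Slc4a1 and -0.23 to 0.0645 for Epb42, which were at -0.26 and -0.33 without both. Between Casp8-/- Mlkl-/- and WT, Zfpm1 was at 0.0552 with quality weights, 0.13 without both and -0.20 to 0.13 with single livers left out. Between Tnfr1-/- and WT, single livers left out gave -0.0427 to 0.0128 for Zfpm1, -0.04 to 0.0558 for Tfrc and -0.0283 to 0.0894 for Slc4a1. Between Casp8-/- Tnfr1-/- and WT, Epo was at -0.0261 with quality weights, -0.0192 without both and -0.0306 to 0.36 with single livers left out, and Alas2 at -0.41, -0.42 and -0.43 to 0.79. The lowest count of the 9 genes in any liver was 1422, and groups held 2 or 3 livers.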
